A study of Homo sapiens with 8 samples.

Results

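Chromosome 19 carries the densest collection of zinc finger genes in the human genome, and their RNA was followed here in RKO cells with and without knockdown of A20. The genes described are all protein-coding genes of chromosome 19 whose GENCODE symbol is ZNF followed by a number. This rule gave 240 members, out of 57992 genes in the count tables and out of 476 protein-coding genes of that naming pattern on all chromosomes. Only genes with a row in the count tables were counted, in the 240 and in the 476. Of the 240 members, 228 lay in 10 clusters and 12 lay outside them. A cluster was a run of at least 5 members whose neighbouring starts were at most 500 kb apart.

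RKO cells are a long-established line derived from a human colon carcinoma. A20 is the protein encoded by TNFAIP3, a ubiquitin-editing enzyme that restrains NFkB signaling. Both groups, 4 samples with control siRNA and 4 with A20 siRNA, received recombinant human wnt3a at 50 ng/mL for 24 hours, so no sample without wnt3a entered the comparison. RNA with poly(A) tails was captured and sequenced, and neither the labels nor the methods say whether the 4 replicates of a group were separate experiments or parallel cultures. The p-values then measure only the spread between these samples, which may be technical.

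Zinc finger genes of this kind encode proteins with a row of C2H2 fingers, each of which holds a zinc ion and contacts a few bases of DNA. Many carry a KRAB domain at the amino end, which recruits the corepressor TRIM28 (KAP1) and, through it, the histone methyltransferase SETDB1 and HP1 proteins, and which is best known for silencing transposable elements. The chromosome 19 clusters grew by repeated tandem duplication, so that neighbours are often close relatives in sequence.

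Total counts on genes were between 21226451 and 34194273 per sample, with medians of 25808751 for control siRNA and 26135815 for A20 siRNA. Levels are given as CPM, the reads of a gene divided by the sample's total after edgeR's TMM adjustment and put on a common scale. A level of 3 reads was 0.0877 CPM in the deepest sample and 0.141 CPM in the shallowest. These floors cover counting error only. The targeted transcript TNFAIP3 was at 4.92, 5.83, 5.59 and 5.53 CPM in the control siRNA samples and at 3.47, 3.00, 3.40 and 3.43 CPM in the A20 siRNA samples. The groups did not overlap, and TNFAIP3 fell by 0.71 on the log2 scale (SE 0.0953, adjusted p = 0.00258, edgeR quasi-likelihood test). Of 8 epithelial and colon markers EPCAM, KRT8, KRT18 and CDX2 were expressed in every sample, whereas KRT19, CDH1 and LGR5 had no read and VIL1 had at most 1 read in a sample. Markers of blood, fibroblasts, endothelium and smooth muscle had at most 4 reads in any sample.

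Most of the chromosome 19 zinc finger genes were transcribed in RKO cells, at low levels. A mean of at least 1 CPM over the 8 samples was reached by 170 of 240 members (70.8%), compared with 80.5% of the 236 ZNF-number genes on other chromosomes and 49.7% of the 1219 other protein-coding genes of chromosome 19. At least 3 reads in every sample were found for 188 members (78.3%). No read in any sample was found for 20 members (8.33%), and against 213244659 reads in all a count of 0 allows a level of up to 0.0141 CPM. The remaining 50 members had reads but a mean under 1 CPM.

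Per kb of exon, the 186 members that passed the expression filter had a median level of 2.36 CPM, compared with 3.60 for ZNF-number genes of other chromosomes, 7.36 for the other genes of chromosome 19 and 5.11 for all 13412 genes tested. Together the 240 members took a share of 0.334 ± 0.00948% of the reads in the controls and of 0.350 ± 0.00438% after knockdown (SD, n = 4). A few members stood far above this level. ZNF146, a gene with fingers only and no KRAB core pattern in its protein, was highest at 44.8 ± 0.660 CPM per kb (SD, n = 8). ZNF121, ZNF581, ZNF317 and ZNF296 followed at 26.4 ± 2.11, 22.6 ± 1.03, 17.4 ± 0.450 and 12.2 ± 0.452 CPM per kb. None of the 4 had the KRAB core pattern either, but the pattern can miss divergent KRAB domains.

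Clusters differed in how much of them was silent and in their typical level, and the levels below are medians over the members of a cluster, in CPM per kb of exon. The lowest was the cluster from ZNF101 to ZNF254 on the pericentromeric part of the chromosome, with a median of 0.361 (0.281 to 0.421 over the 8 samples) and 19 of 37 members expressed. This rank depended on few members. With those under 80% unique 75-base windows left out, its median was 0.701 and that of ZNF264 to ZNF446 was 0.611, so the 2 changed places. Left out of ZNF101 to ZNF254 were ZNF98 and ZNF492, which both lie in a run of nearly silent members described below. Whether sequence relatedness has a part in this shift was not tested. The cluster from ZNF264 to ZNF446 at the end of the long arm had 0.665 with all members counted (0.594 to 0.766) and 27 of 41 expressed, and 7 of its members had no read. The cluster from ZNF653 to ZNF791 had a median of 1.14 (1.07 to 1.28) and 20 of 25 members expressed. With all members counted, the ranges of these 3 clusters did not overlap.

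Above them the order was less clear. ZNF575 to ZNF180 at 1.51, ZNF565 to ZNF573 at 1.53, ZNF414 to ZNF846 at 1.61 and ZNF302 to ZNF792 at 1.79 had overlapping ranges, from 1.39 to 1.98 in all. The cluster from ZNF175 to ZNF331 had a median of 2.14 (1.99 to 2.29), with 27 of 39 members expressed and none without a read. The clusters from ZNF554 to ZNF77 and from ZNF628 to ZNF835 were highest at 2.41 and 2.43 and overlapped each other and the cluster before them in their ranges. Cluster limits, and so the members inside them, are set by the distance chosen. With 250 kb or 1000 kb in place of 500 kb some of these medians changed by more than 1.5 times, that of ZNF628 to ZNF835 to 0.0541 with 250 kb.

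**Figure D1:**
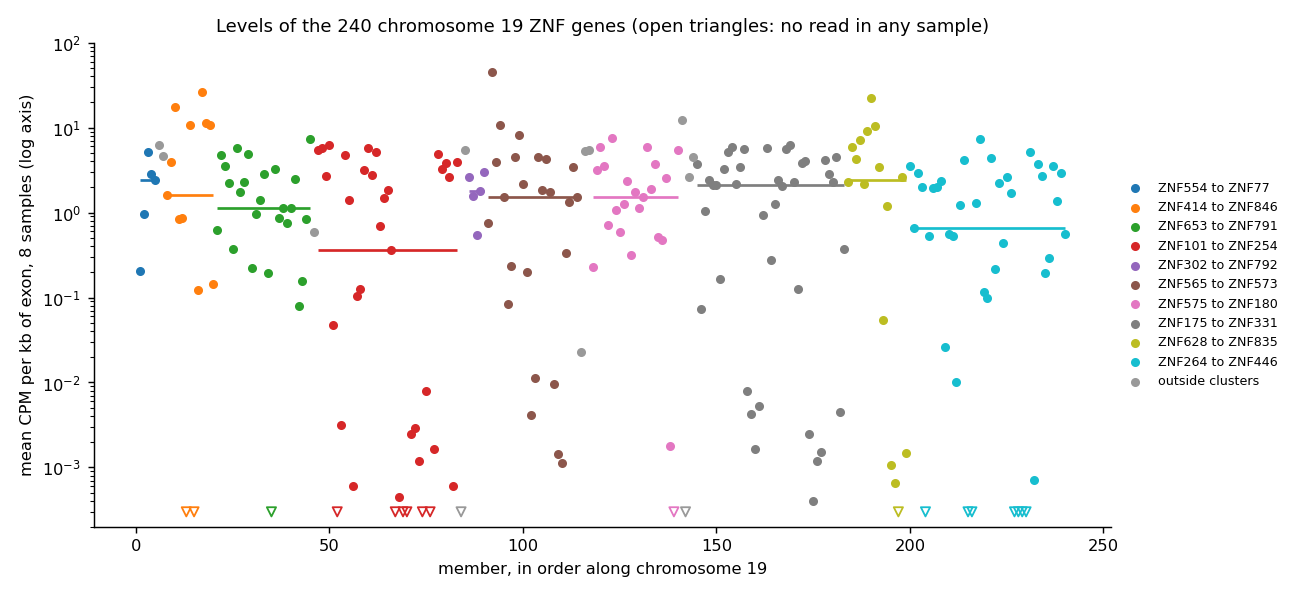
Mean level of each member over the 8 samples in CPM per kb of exon (log axis) against its order along chromosome 19, coloured by cluster, with horizontal lines at the cluster medians and open triangles at the bottom for the 20 members without a read. The cluster from ZNF101 to ZNF254 has the lowest median with all members counted (0.361, but 0.701 against 0.611 for ZNF264 to ZNF446 without members under 80% unique windows) and ZNF146 the highest single level (44.8).

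The highest member of each cluster was ZNF556 (5.18 CPM per kb), ZNF121 (26.4), ZNF791 (7.28), ZNF253 (6.23), ZNF792 (2.97), ZNF146 (44.8), ZNF45 (7.55), ZNF468 (6.22), ZNF581 (22.6) and ZNF551 (7.42) in chromosome order. With those of ZNF121, ZNF146 and ZNF581 set aside, these leading levels lay between 2.97 and 7.55 CPM per kb.

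Runs of silent members occurred. The longest run of consecutive members under 1 CPM was in the cluster from ZNF101 to ZNF254, where the 11 members ZNF43, ZNF208, ZNF257, ZNF676, ZNF729, ZNF98, ZNF492, ZNF99, ZNF723, ZNF728 and ZNF730, from chr19:21804946 to 23147221, had 10 reads in all over the 8 samples, and 5 of them had none. The highest mean among the 11 was 0.0147 CPM. ZNF98 had the smallest share of unique sequence of all members, 62.4% of the 75-base windows of its exons, and its only 2 reads were in control siRNA replicate 3. ZNF492 was the other member of this cluster under 80% unique windows.

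A second run, named after its values were seen, had no read at all. It held ZNF418, ZNF256, ZNF606 and ZNF135, neighbours between chr19:57921882 and 58086310 in the cluster from ZNF264 to ZNF446, and between 98.0% and 100% of their exonic windows were unique. Other runs of 3 or 4 low members were ZNF610, ZNF880, ZNF528 and ZNF534 (20 reads in all), ZNF415, ZNF347, ZNF665 and ZNF677 (8 reads), ZNF569, ZNF570 and ZNF793 (15 reads), ZNF93, ZNF682 and ZNF90 (61 reads), ZNF626, ZNF66 and ZNF85 (250 reads) and ZNF667, ZNF471 and ZNF470 (3 reads).

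The promoters of the ZNF418 to ZNF135 run are shown because all 4 genes were without a read. Each is the 250 bases before the RefSeq start on GRCh38.p14, written 5′ to 3′ on the gene's strand, with every CpG in capitals.
ZNF418, chr19:57935403-57935652, minus strand: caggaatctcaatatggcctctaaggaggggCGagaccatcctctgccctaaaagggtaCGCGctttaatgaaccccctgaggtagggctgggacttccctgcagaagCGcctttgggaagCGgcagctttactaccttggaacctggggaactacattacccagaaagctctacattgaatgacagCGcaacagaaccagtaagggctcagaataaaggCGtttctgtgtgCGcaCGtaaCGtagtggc
ZNF256, chr19:57947707-57947956, minus strand: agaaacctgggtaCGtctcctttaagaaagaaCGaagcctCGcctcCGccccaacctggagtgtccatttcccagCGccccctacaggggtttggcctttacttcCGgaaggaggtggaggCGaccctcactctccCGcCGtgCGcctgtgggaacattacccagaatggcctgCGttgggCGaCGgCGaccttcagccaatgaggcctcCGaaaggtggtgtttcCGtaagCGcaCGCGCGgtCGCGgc
ZNF606, chr19:58002821-58003070, minus strand: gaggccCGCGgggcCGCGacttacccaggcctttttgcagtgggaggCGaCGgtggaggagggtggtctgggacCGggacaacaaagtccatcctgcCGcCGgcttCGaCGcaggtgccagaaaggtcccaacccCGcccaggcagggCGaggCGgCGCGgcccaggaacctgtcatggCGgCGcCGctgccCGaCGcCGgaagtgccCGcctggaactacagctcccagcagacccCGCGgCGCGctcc
ZNF135, chr19:58058989-58059238, plus strand: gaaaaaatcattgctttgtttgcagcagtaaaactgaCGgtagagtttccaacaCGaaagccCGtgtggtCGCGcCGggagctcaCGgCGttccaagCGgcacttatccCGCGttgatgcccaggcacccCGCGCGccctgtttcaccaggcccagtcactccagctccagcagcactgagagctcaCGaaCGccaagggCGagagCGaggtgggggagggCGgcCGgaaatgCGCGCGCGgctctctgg
They hold 10, 22, 27 and 24 CpG, so 3 of these 4 silent promoters lay above the member median of 16 per 250 bases.

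Across members, the number of CpG in the promoter differed little between expressed and silent genes. A RefSeq promoter was matched by symbol for 210 of the 240 members. The median was 16 CpG for 150 members at 1 CPM or more, 14 for 43 members with reads but under 1 CPM and 15 for 17 members without a read, and the median of all 27326 RefSeq promoters was 11. The counts within a class ran from 1 to 32 among expressed members and from 8 to 39 among members without a read. DNA methylation was not measured, so these are counts of letters only.

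Short motifs were counted in the same 250 bases on both strands, and none of the 4 motifs contains another. The letters CCGGAAG, the core bound by ETS family factors, were in 31.4% of the members' promoters and in 8.82% of all RefSeq promoters. GGGCGG (the GC box) was in 66.7% against 42.3%, CCAAT in 50.5% against 33.0%, and TATAAA (the TATA box) in 1.90% against 11.1%. Between members at 1 CPM or more and those below, the shares were 28.7% and 38.3% for CCGGAAG and 66.7% in both for GGGCGG. The RefSeq promoters were not matched to the members in base composition, with a median of 11 CpG against 16. The part of composition in these shares was not tested. The motifs were chosen with results known, and a match is not a measured binding site.

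Neighbours could also differ by orders of magnitude. Among 163 adjacent pairs in which both members were detected, the median difference was 2.60-fold in CPM per kb. The largest step upward was from ZNF426 (0.124 CPM per kb) to ZNF121 (26.4 CPM per kb), 213-fold, with 21684 bases between the genes. The largest step downward followed in the same cluster, from ZNF562 (10.6) to ZNF846 (0.145), 73.4-fold. For ZNF562 50.7% of exonic bases overlap a gene on the other strand, and the strand setting of the counting is not given in the sources used here. The promoters of the first pair are shown because the genes are adjacent, lie on the same strand and differ most in level, with CpG in capitals as above.
ZNF426, chr19:9538646-9538895, minus strand: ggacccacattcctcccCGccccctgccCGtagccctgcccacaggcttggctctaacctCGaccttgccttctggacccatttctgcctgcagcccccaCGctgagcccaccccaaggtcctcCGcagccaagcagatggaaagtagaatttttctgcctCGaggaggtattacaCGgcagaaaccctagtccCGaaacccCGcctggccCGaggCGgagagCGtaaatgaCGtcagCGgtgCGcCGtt
ZNF121, chr19:9584505-9584754, minus strand: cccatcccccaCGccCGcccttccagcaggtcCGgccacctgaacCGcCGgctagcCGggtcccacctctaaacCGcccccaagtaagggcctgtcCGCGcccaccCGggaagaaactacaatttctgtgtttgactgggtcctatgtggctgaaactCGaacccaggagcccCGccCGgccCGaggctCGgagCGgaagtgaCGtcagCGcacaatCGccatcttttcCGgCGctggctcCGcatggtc
They hold 16 and 22 CpG.

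Relatedness among members put some limits on these levels, because only uniquely mapping reads were counted. The median member had 99.6% unique 75-base windows, 213 members had at least 95% and 4 had under 80% (ZNF98, ZNF492, ZNF417 and ZNF443). Exons of 143 members overlap another annotated gene. Among the members without a read, ZNF177 and ZNF625 share 90.6% and 83.2% of their exonic bases with another gene on the same strand, whereas ZNF560, ZNF682 and ZNF43 share none. The part of such sharing in the counts of 0 was not tested.

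The encoded proteins had between 1 and 39 C2H2 fingers by pattern, with a median of 12, and 160 of 240 had the KRAB core pattern within the first 200 residues. The pattern was found in 31 of 37 members of ZNF101 to ZNF254 and in 23 of 25 of ZNF653 to ZNF791, but in 2 of 23 of ZNF575 to ZNF180 and 4 of 16 of ZNF628 to ZNF835. A protein without the pattern may still hold a divergent KRAB domain. These are therefore counts of the pattern, and a low count does not show that a cluster lacks KRAB domains. Members with 1 to 5 fingers were expressed in 11 of 12 cases (91.7%), those with 6 to 10 in 69.1%, with 11 to 15 in 72.1% and with 16 or more in 66.1%.

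A20 knockdown changed few members one by one. Of 186 members tested, 3 were higher after A20 siRNA with an adjusted p-value under 0.05 (1.61%), where 0.634% of all genes tested were called higher, and 0 were lower, where 0.611% were. The 3 were ZNF8, ZNF841 and ZNF432, all KRAB zinc finger genes by the pattern. At an unadjusted p-value under 0.05 by the same edgeR test, 27 members were higher (14.5%, against 8.81% of all genes) and 1 was lower (0.538%, against 7.37%). DESeq2 called 4 members higher and 0 lower, where it called 83 and 122 of all genes, and limma-voom called 3 and 0, where it called 81 and 84. The other 54 members were not tested, and 34 of these had reads, with no mean above 0.349 CPM. In bulk RNA, a change in the number of cells that carry a transcript and a change in its amount per cell cannot be told apart.

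ZNF8 (ENSG00000278129, GRCh38 chr19:58278955-58302791, plus strand, in GENCODE 44) encodes 7 fingers by pattern. It was at 23.1, 21.6, 22.2 and 22.4 CPM in the control siRNA samples and at 24.7, 27.3, 27.2 and 26.6 CPM in the A20 siRNA samples. All A20 siRNA samples lay above all controls. The mean was 22.3 ± 0.587 CPM in the controls and 26.5 ± 1.24 CPM after A20 siRNA (SD, n = 4), a log2 fold change of 0.24 (SE 0.0443, adjusted p = 0.0199, edgeR). Another gene on the same strand overlaps 20.7% of its exonic bases.

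ZNF841 (ENSG00000197608, chr19:52064465-52095765, minus strand) encodes 20 fingers. Its levels were 22.9, 19.6, 19 and 18.4 CPM with control siRNA and 25.8, 23.4, 24.4 and 22.6 CPM with A20 siRNA. Control replicate 1 lay above A20 replicate 4, so the groups overlapped. The means were 19.99 ± 2.03 and 24.1 ± 1.37 CPM (SD, n = 4), a log2 fold change of 0.27 (SE 0.0605, adjusted p = 0.0370, edgeR).

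ZNF432 (ENSG00000256087, chr19:52031378-52095738, minus strand) encodes 17 fingers and overlaps the span of ZNF841. Its levels were 19.6, 18.0, 16.4 and 17.0 CPM with control siRNA and 21.5, 20.9, 20.7 and 19.9 CPM with A20 siRNA. Control replicate 1 was the highest control, just below the lowest A20 siRNA sample. The means were 17.8 ± 1.41 and 20.8 ± 0.657 CPM (SD, n = 4), a log2 fold change of 0.22 (SE 0.0537, adjusted p = 0.0445, edgeR). In GENCODE 44 3.32% of its exonic bases are shared with another gene on its strand and 13.6% with one on the opposite strand, and the corresponding shares for ZNF841 are 4.64% and 0%.

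**Figure D2:**
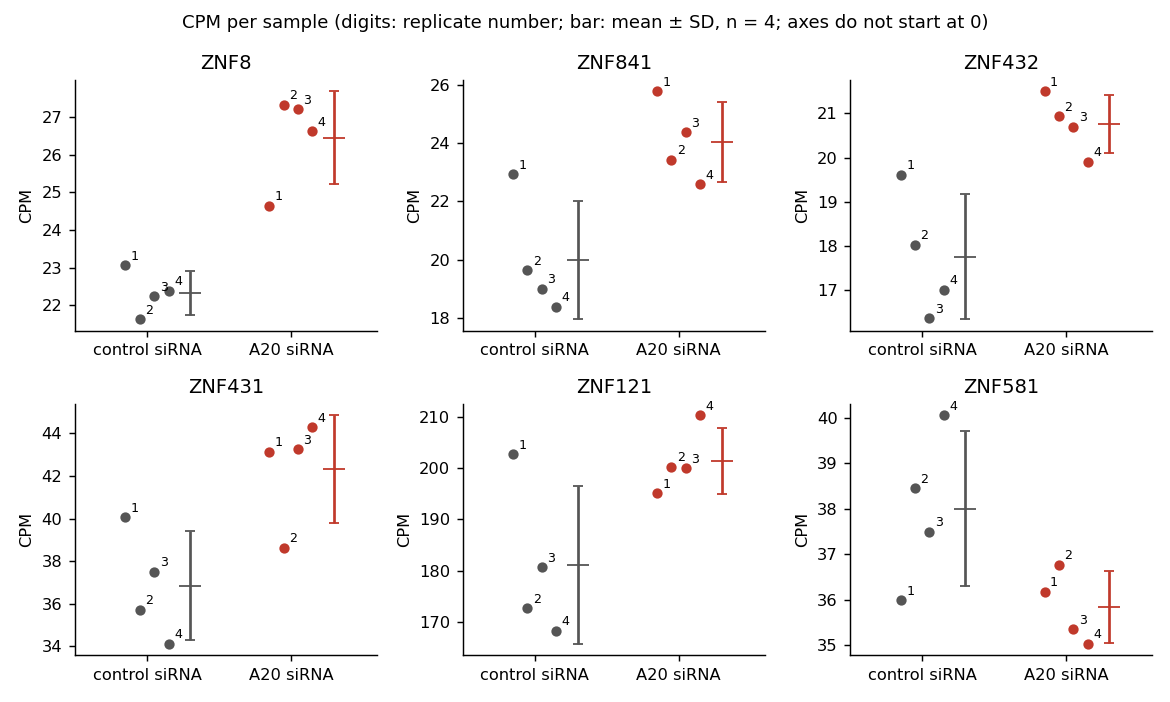
CPM in each sample for the 3 called members ZNF8, ZNF841 and ZNF432, for ZNF431 and ZNF121 as the next smallest p-values in the same direction, and for ZNF581 as the smallest in the other. Points carry the replicate number, bars give mean ± SD (n = 4), axes do not start at 0, and in 5 of the 6 panels control replicate 1 is the highest control sample.

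These calls rested on single libraries. Without control replicate 1 16 members were called higher, without control replicate 2, control replicate 4 or A20 replicate 3 none was, and without control replicate 3 only 1 was. Over all genes the numbers called higher moved as well, to 567 without control replicate 1, 11 without control replicate 2, 9 without control replicate 4, 6 without A20 replicate 3 and 19 without control replicate 3, from 85 with all samples. The adjusted p-value of ZNF8 stayed under 0.05 in 5 of 8 fits that left out a sample (highest 0.0905), that of ZNF841 in 3 of 8 (highest 0.150) and that of ZNF432 in 1 of 8 (highest 0.165), and the fold changes were positive in all 8 for each.

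The promoters of the 3 called members are given, with CpG in capitals, as the regions next to the transcripts that rose. The RefSeq start of ZNF432 lies inside the GENCODE span of the gene.
ZNF8, chr19:58278705-58278954, plus strand: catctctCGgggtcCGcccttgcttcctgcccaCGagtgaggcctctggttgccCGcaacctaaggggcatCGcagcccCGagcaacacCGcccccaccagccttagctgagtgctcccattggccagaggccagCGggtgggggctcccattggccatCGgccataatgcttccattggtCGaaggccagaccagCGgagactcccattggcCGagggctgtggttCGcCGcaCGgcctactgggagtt
ZNF841, chr19:52095766-52096015, minus strand: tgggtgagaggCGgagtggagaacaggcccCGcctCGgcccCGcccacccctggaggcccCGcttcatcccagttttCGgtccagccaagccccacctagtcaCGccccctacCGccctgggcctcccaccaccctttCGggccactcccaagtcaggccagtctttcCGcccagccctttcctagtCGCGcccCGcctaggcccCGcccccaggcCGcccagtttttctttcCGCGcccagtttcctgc
ZNF432, chr19:52048839-52049088, minus strand: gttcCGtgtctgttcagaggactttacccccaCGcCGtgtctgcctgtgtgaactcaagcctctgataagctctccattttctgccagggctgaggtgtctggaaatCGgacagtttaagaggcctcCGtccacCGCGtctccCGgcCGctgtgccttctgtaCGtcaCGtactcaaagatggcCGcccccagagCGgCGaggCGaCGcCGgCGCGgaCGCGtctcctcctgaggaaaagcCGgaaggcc
They hold 15, 17 and 22 CpG, against a member median of 16.

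Next in order of p-value were ZNF431 and ZNF121. ZNF431 was at 36.9 ± 2.55 CPM with control siRNA and 42.3 ± 2.52 CPM with A20 siRNA (log2 fold change 0.19, adjusted p = 0.0520, edgeR). ZNF121, the second highest member per kb, was at 181 ± 15.3 and 201 ± 6.34 CPM (log2 fold change 0.15, adjusted p = 0.0715), and its control replicate 1 at 203 CPM was above 3 of the 4 A20 siRNA samples. Neither passed the threshold in the edgeR fit used here, and the groups overlapped for both. ZNF431 passed with DESeq2 (adjusted p = 0.0268), and its adjusted p-value in the alternatives ranged from 0.000208 without the low-count filter to 0.195 without control replicate 4. ZNF121 did not pass with DESeq2 (adjusted p = 0.246) and ranged from 7.68e-06 without the low-count filter to 0.250 without control replicate 4.

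On the lower side no member passed. ZNF581 was at 36.0, 38.5, 37.5 and 40.1 CPM with control siRNA and at 36.2, 36.8, 35.4 and 35.0 CPM with A20 siRNA. The groups overlapped, with a log2 fold change of -0.08 (adjusted p = 0.305, edgeR). The next 4 were ZNF565, ZNF211, ZNF100 and ZNF787, with log2 fold changes of -0.24, -0.15, -0.24 and -0.06 and adjusted p-values of 0.368, 0.372, 0.380 and 0.465 by the same test. The highest member, ZNF146, did not pass either, at 186 ± 2.23 CPM with control siRNA and 186 ± 3.53 CPM with A20 siRNA (adjusted p = 0.994).

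As a set the members leaned upward by a small amount. The log2 fold change was above 0 for 144 of 186 (77.4%), compared with 51.6% of all genes tested, 70.9% of the ZNF-number genes of other chromosomes and 44.4% of the other protein-coding genes of chromosome 19. The median log2 fold change was 0.0504, compared with 0.00275, 0.0354 and -0.00952 in the same order. The ZNF-number genes elsewhere in the genome thus also lay mostly above 0, and the other genes of chromosome 19 mostly below. Fold changes ran from -0.40 (ZNF888) to 0.47 (ZNF66), and 165 of 186 lay within 0.2 of 0. Neither ZNF888 nor ZNF66 passed the threshold. ZNF66 had only 8 to 25 reads per sample (SE 0.29, adjusted p = 0.445, edgeR). The 2 groups did not overlap in CPM for 13 members, all higher after A20 siRNA (6.99%, against 3.71% of all genes), and for 0 members in the lower direction (against 3.91%).

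**Figure D3:**
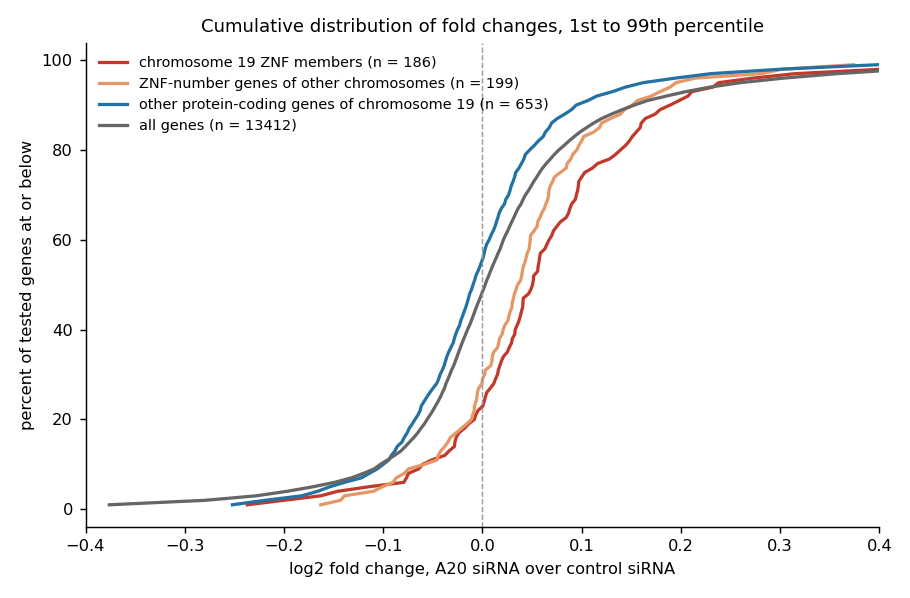
Percent of tested genes at or below each log2 fold change (A20 siRNA over control siRNA), drawn from the 1st to the 99th percentile, for the members (n = 186), ZNF-number genes of other chromosomes (n = 199), other protein-coding genes of chromosome 19 (n = 653) and all genes (n = 13412). The member curve crosses 0 furthest below the middle, with a median of 0.0504.

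The lean was not the same in every sample. As the median over members of the deviation from each gene's mean log2 level, control replicates 1 to 4 were at 0.0236, -0.0481, -0.0337 and -0.0478, and A20 replicates 1 to 4 at 0.0211, 0.00803, 0.0264 and 0.0558. Control replicate 1 fell among the A20 siRNA samples, and the other 3 controls were below all of them. By share of all counts control replicate 1 again stood above the other controls, at 0.348% with the others between 0.327% and 0.332%, against 0.346% to 0.356% with A20 siRNA. The ZNF-number genes of other chromosomes placed control replicate 1 at 0.0182, also among the A20 siRNA samples (0.00467 to 0.0236). With control replicate 1 left out the member median was 0.0644. Control replicate 1 was the deepest control, with 30022486 counts against 23912317 to 26067584 in the other controls. A20 replicate 1 was deeper still, at 34194273. Why control replicate 1 differs, and whether depth has a part, was not tested.

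**Figure D4:**
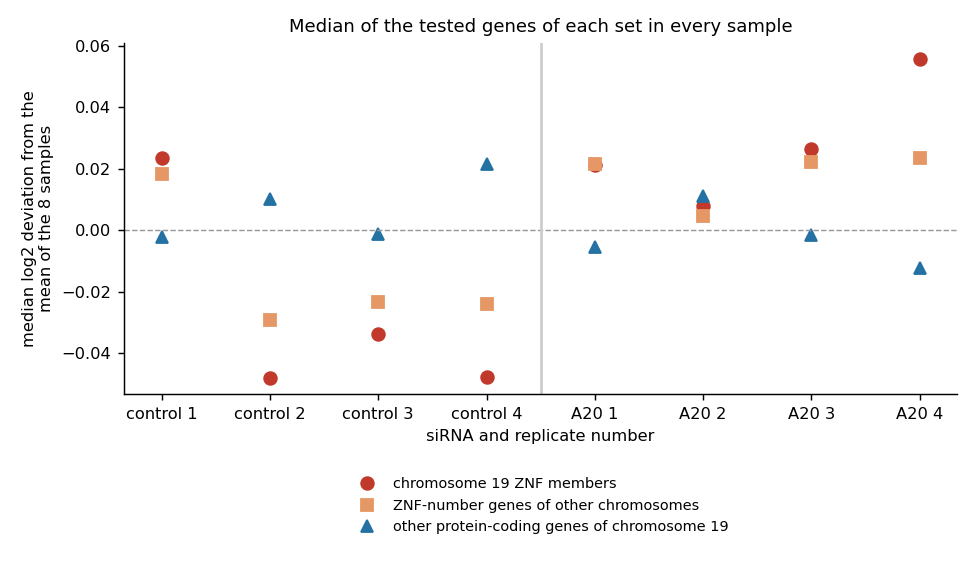
Median over the tested genes of each set of the log2 deviation from a gene's mean over the 8 samples, for every sample, with circles for the members, squares for ZNF-number genes of other chromosomes and triangles for other protein-coding genes of chromosome 19. Control replicate 1 (0.0236 for the members) lies with the A20 siRNA samples, and for the members and the ZNF-number genes of other chromosomes the other 3 controls lie below 0.

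By cluster the upward lean was widespread but not general. It was most complete in ZNF175 to ZNF331, where 28 of 30 members tested were above 0 (median log2 fold change 0.0655), in ZNF653 to ZNF791 with 22 of 24 (0.0537) and in ZNF414 to ZNF846 with 10 of 11 (0.0671). The cluster from ZNF628 to ZNF835 went the other way, with 1 of 11 above 0 (median -0.0637). ZNF302 to ZNF792 had 2 of 5 above 0. By the median deviation in single samples the groups overlapped in every cluster but ZNF414 to ZNF846. There the controls reached at most -4.51e-05 and the A20 siRNA samples at least 0.0227. In ZNF175 to ZNF331 control replicate 1 (0.0343) lay above A20 replicate 2 (0.00643). In ZNF653 to ZNF791 control replicate 2 (0.0159) lay above A20 replicate 3 (-0.00625). No test was made between clusters, since members are not replicates of a condition.

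The cluster from ZNF628 to ZNF835 was also unlike the rest in sequence. Its median GC content, taken from the Ensembl canonical transcript of each gene, was 63.3%, against 36.8% to 45.8% in the other clusters. It holds ZNF580, ZNF581, ZNF524 and ZNF444, which encode 3 or 4 fingers by pattern. Only ZNF865 in it was above 0, at 0.02, and the other 10 lay between -0.12 and -0.01. In the single samples its median deviation was 0.0275, -0.00802, 0.000092 and 0.0778 with control siRNA and -0.0539, -0.00431, -0.0151 and 0.0197 with A20 siRNA, so the groups overlapped. After a correction for exonic length and GC content 2 of 11 were above 0, with a median of -0.0569.

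GC content of the canonical transcript divided the members in the same manner. Above 0 were 43 of 50 members under 40% GC, 72 of 86 between 40% and 45%, 19 of 22 between 45% and 50%, and 10 of 28 at 50% or more. Among all genes tested the corresponding shares were 53.1%, 53.6%, 52.0% and 49.5%. Likewise 3 of 11 tested members with 1 to 5 fingers were above 0, against 75.9% to 85.2% in the classes with more fingers. These classes were drawn after the values were seen and carry no test, and they share members.

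**Figure D5:**
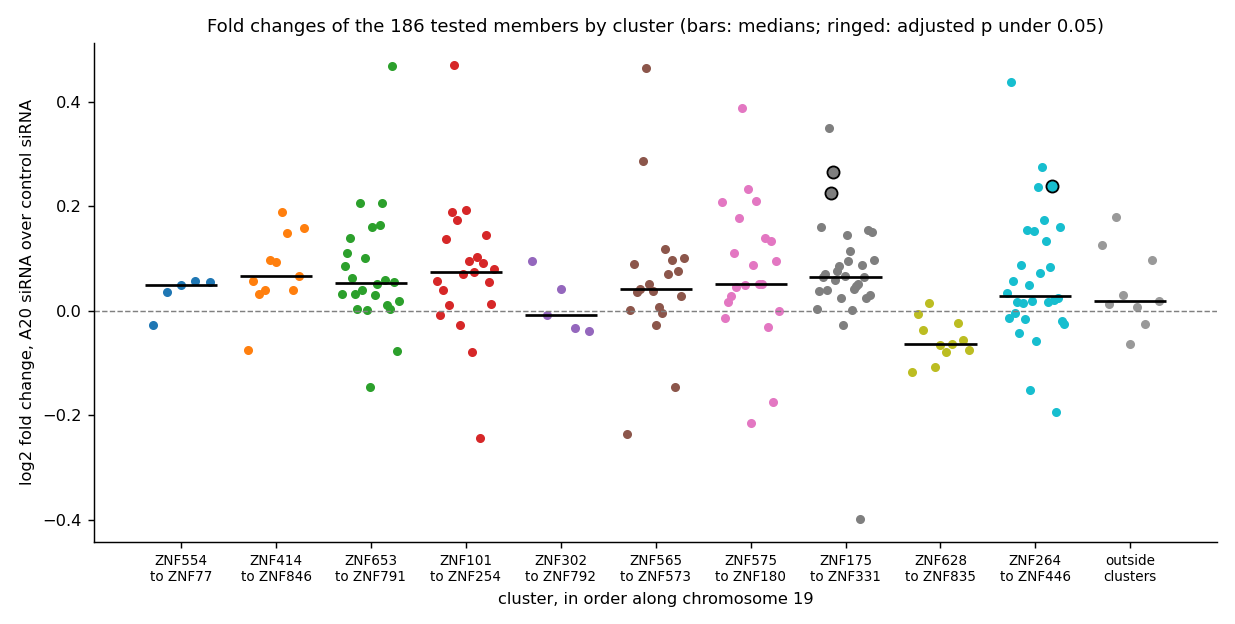
Log2 fold change (A20 siRNA over control siRNA) of the 186 tested members, grouped by cluster in chromosome order, with bars at the cluster medians and a black ring around the 3 members with an adjusted p-value under 0.05. In 9 of the 11 columns the median lies above 0, and in the cluster from ZNF628 to ZNF835 10 of 11 members lie below it.

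The partners of KRAB zinc finger proteins did not pass the test. All 16 genes of a list of corepressor components were tested, 0 were called in either direction and 10 were above 0 (62.5% of the list, median log2 fold change 0.0138), where 0.634% and 0.611% of all genes were called higher and lower. TRIM28, the KRAB binding corepressor, was at 647 ± 14 CPM in the controls and 630 ± 15 CPM after A20 siRNA (log2 fold change -0.04, adjusted p = 0.425, edgeR). SETDB1, the methyltransferase, was at 21.7 ± 0.672 and 22.4 ± 1.35 CPM (adjusted p = 0.728). CBX5, which encodes an HP1 protein, had the smallest adjusted p-value of the list (0.126), at 344 ± 8.84 and 361 ± 3.81 CPM.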

How the data were processed

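RNAseq counts of 8 RKO samples were analysed, grouped by the siRNA named in the sample labels, with the replicate numbers of the labels. The authors deposited raw counts of uniquely mapped reads per gene after trimming with Trimmomatic and mapping with STAR to GRCh38.p7. The GENCODE release, tool versions and strand setting are not given in the sources used here. Since reads that fit several genes were not counted, levels of near-identical members may be understated.

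Counts were normalized by TMM, filtered with filterByExpr (minimum count 10, 13412 of 57992 genes kept) and tested with the quasi-likelihood test of edgeR 4.0.16 in R 4.3.3, with no covariate, Benjamini-Hochberg adjustment over all genes tested and a threshold of 0.05. The steps were tested on simulated data, where recovery was required only for changes larger than those of the members. The lowest and highest total counts and the group medians are in the report, and the floors given there cover counting error only. Lengths, GC content, positions and coding sequences came from GENCODE 44 (56948 genes matched by Ensembl identifier) and promoters from RefSeq (GRCh38.p14). Lengths cover all annotated exons of a gene, and GC content is that of its canonical transcript. Unique windows are 75-base windows of exons found once in the genome.

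Named members were those with an adjusted p-value under 0.05, the 5 of smallest p in each direction, the 5 of highest level, the highest of each cluster, up to 5 without a read, the members of smallest and largest unique share and the 2 adjacent pairs that differed most. The largest unique share was tied at 100% among 78 members, of which ZNF77 came first. Members and lists were chosen with earlier results of these data known. Alternatives were RLE normalization, other filters, DESeq2 1.42.0, limma-voom (limma 3.58.1), the replicate number as a block, length and GC corrections, other thresholds and distances, and each sample left out.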

Additional observations from a re-analysis of the deposited data

Results flagged for a closer look

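A sample that stood apart from the other 3 of its group by Dixon's 95% criterion was found in 6 of the 52 groups looked at. About 2.6 would be found for independent groups of normally distributed values. The genes here were picked partly by their values, so no conclusion is drawn from that number. The ratio of gap to range was 0.870 for ZNF211 (control replicate 2 at 6.96 CPM, the others between 5.91 and 6.05) and 0.870 for ZNF45 (control replicate 4 at 35.6 CPM, the others between 31.5 and 32.0). It was 0.831 for ZNF556 (A20 replicate 2 at 36.6 CPM, the others between 33.8 and 34.2) and 0.831 for ZNF846 (control replicate 1 at 1.03 CPM, the others between 0.718 and 0.771). For ZNF98 it was 1.0, since control replicate 3 held both of its reads. For TNFAIP3 it was 0.847, with A20 replicate 2 the lowest at 3.00 CPM and the others between 3.40 and 3.47.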

How the results depend on the processing

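The fold changes of ZNF8, ZNF841 and ZNF432 were positive under every alternative tried, and their adjusted p-values stayed under 0.05 except where single samples were left out. The median log2 fold change of the members stayed between 0.0379 and 0.0644 over all alternatives, and 71.0% to 78.5% of the members tested were above 0. TNFAIP3 passed the threshold in every fit that gave it an adjusted p-value, and DESeq2 gave none. The number of members called higher was 7 without the low-count filter, where 220 members were tested in place of 186. It was 5 with the replicate block, 5 with that block plus both corrections, and from 0 to 16 with single samples left out. No alternative called a member lower. Over all genes, the numbers lower and higher were 310 and 314 without the filter, 212 and 262 with the replicate block, 219 and 220 with the block and both corrections, and 6 to 430 and 6 to 567 with single samples left out. The number lower was 131 with the length and GC correction. Without the filter many more genes of low counts enter the fit, and why the calls then rise was not tested.

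Same-numbered samples deviated together weakly at most, with correlations of 0.0838, 0.0336, 0.0354 and -0.00982 for numbers 1 to 4. Of the 8 samples 4 correlated best with their own number, where 1 in 4 samples of the other group carries that number. The replicate block was not used for the results, although more genes were called with it. Whether same-numbered samples share a batch was not tested. With the block ZNF431 and ZNF121 passed the threshold (adjusted p = 0.0117 and 0.0298, edgeR), as they did with the block plus both corrections (0.0138 and 0.0296). ZNF431 also passed with the length correction (0.0496), with length and GC correction (0.0328) and without A20 replicate 2 (0.0170). Both passed without control replicate 1 (0.00451 and 0.000250), as did ZNF253 (0.0195). The log2 fold change of ZNF146 lay near 0 and turned to -0.00177 with RLE normalization, -0.00375 without the filter, -0.00184 with DESeq2, and ranged from -0.0105 to 0.0109 with single samples left out. That of ZNF296 ranged from -0.0448 to 0.00284 and that of ZNF846 from -0.0953 to 0.305 with single samples left out.

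Cluster medians in CPM per kb moved with the distance that defines a cluster. The clusters are named here as at 500 kb, but some held other members at 250 kb or 1000 kb. With 250 kb, that of ZNF414 to ZNF846 was 0.859, ZNF101 to ZNF254 0.124 and ZNF628 to ZNF835 0.0541. With 1000 kb, ZNF414 to ZNF846 was 3.93, ZNF575 to ZNF180 1.63, and ZNF628 to ZNF835 merged with ZNF264 to ZNF446 at 1.30. Without members under 80% unique windows ZNF101 to ZNF254 was 0.701 and ZNF264 to ZNF446 0.611. The expressed number was 185 at 0.5 CPM, 159 at 2 CPM and 137 at 1 CPM per kb. Depth limits members without a read to under 0.0141 CPM over all samples.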

Other observations

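Besides ZNF8 and ZNF432, other members also had groups that did not overlap, and these were picked after their values were seen. ZNF614, the next member to ZNF432 and ZNF841 on the same strand, was at 0.827 ± 0.0857 CPM with control siRNA and 1.05 ± 0.0534 CPM with A20 siRNA (SD, n = 4), with a log2 fold change of 0.35 (SE 0.182, adjusted p = 0.384, edgeR), so it did not pass the threshold. In the cluster from ZNF575 to ZNF180 the groups did not overlap for ZNF155, ZNF224 and ZNF226, with log2 fold changes of 0.39, 0.21 and 0.14 and adjusted p-values of 0.151, 0.190 and 0.218 by the same test. The remaining ones were ZNF557, ZNF559, ZNF562, ZNF441, ZNF429, ZNF814 and ZNF132, with log2 fold changes from 0.07 to 0.28, and all had adjusted p-values above 0.05.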
